A study of Mus musculus with 12 samples.

Results

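HOXD13-only sites are places in the genome where the transcription factor HOXD13 was called as bound in the distal forelimb bud and its relative HOXA13 was not. They were chosen by called peaks of both factors, as the peaks of the wild-type HOXD13 list on chromosomes 1 to 19 that share not even 1 bp with a peak of the wild-type HOXA13 list. There were 2905 of them among 22372 autosomal HOXD13 peaks, or 12.98% (Wilson 95% interval 12.6 to 13.4%). The whole HOXD13 list holds 22655 peaks. The other 19467 autosomal HOXD13 peaks overlap a HOXA13 peak and are called shared here.

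HOXA13 and HOXD13 are homeodomain proteins encoded at the 5' ends of the HoxA and HoxD clusters. Both are made in the part of the limb bud that forms the hand or foot, and mice that lack both fail to form digits. H3K27ac, acetylation of a histone H3 lysine, is found at promoters and enhancers in use, and H3K27me3, trimethylation of the same residue, is laid down by Polycomb complexes on silent genes.

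All E11.5 libraries came from distal forelimb of mixed C57BL/6 and CD1 mice. H3K27ac and H3K27me3 were profiled in embryos with the genotype Hoxa13-/-;Hoxd13-/-, called the double mutant here, and in wild type, while HOXA13 and HOXD13 were profiled in wild type. The Hoxa13 mutant allele has a neomycin cassette inserted in the coding region, the Hoxd13 mutant allele a lacZ reporter in the first exon, and the protocol calls the E11.5 material ZAP cells. HOXA13 chromatin was cross-linked with disuccinimidyl glutarate and formaldehyde, HOXD13 chromatin with formaldehyde alone, and both antibodies were made in-house. Each profile is 1 library, so no difference below has a replicate check, and whether embryos were pooled is not given in the sources used here.

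The data are peak lists, 1 per library, with a score per peak from the authors' peak caller that is read as -10 log10 of a p-value. The score depends on read depth, which is unknown here, and was used only within a list. The autosomal lists held 37433 H3K27ac peaks in the double mutant and 31220 in wild type, and 18973 H3K27me3 peaks in the double mutant and 19624 in wild type. The autosomal HOXA13 list held 30657 peaks. Positions are on mm9, the build of the lists, and count from 1. Intervals are 95% intervals for the number of peaks counted. They leave out the spread between embryos, and they are too narrow because peaks in 1 chromatin domain are not independent.

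Most HOXD13-only sites had low HOXD13 scores. The lowest score was 50.0, the median 69.7 and the highest 1523, whereas shared HOXD13 peaks had a lowest score of 50.0, a median of 156 and a highest score of 3233. Scores under 100 made up 80.2% of HOXD13-only sites and 30.9% of shared peaks. HOXD13-only peaks had a median width of 1015 bp, and shared peaks one of 1187 bp. Since the lists of both factors chose the sites, these values describe them and are not a result. A factor peak that falls just below the authors' threshold is absent from a list, so a HOXD13-only site is one at which HOXA13 was not called.

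**Figure D1:**
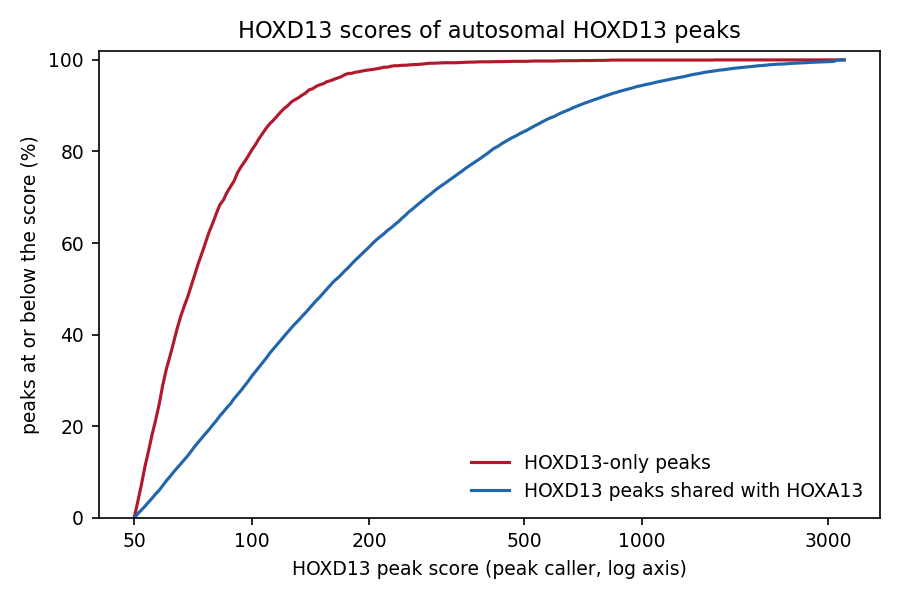
Cumulative share of autosomal HOXD13 peaks (vertical axis, %) at or below each HOXD13 peak score (horizontal axis, logarithmic), for HOXD13-only peaks and for HOXD13 peaks shared with HOXA13. At a score of 100 the HOXD13-only curve stands at 80.2% and the shared curve at 30.9%.

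The boundary of the class was a matter of few bases for a small number of peaks. The gap between a HOXD13-only site and the nearest HOXA13 peak had a median of 15993 bp, and 219 sites (7.54%) had a HOXA13 peak within 1000 bp. Just inside the rule, chr1:24106873-24107909 (score 54.5) and chr1:140142880-140143794 (score 71.3) had a gap of 3 bp and chr8:6140095-6141869 (score 103) a gap of 10 bp. Just outside it, the shared peaks chr10:68995774-68996876 (score 94.4) and chr10:120236906-120237948 (score 95.6) overlapped a HOXA13 peak by 14 bp, and chr7:52272570-52273581 (score 57.8) by 46 bp. In all, 15 HOXD13-only sites had a gap under 100 bp and 9 shared peaks an overlap under 100 bp.

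HOXD13-only sites were spread over every autosome. They made up between 10.2% (chromosome 15) and 16.3% (chromosome 11) of the HOXD13 peaks of a chromosome. The nearest other HOXD13-only site lay at a median distance of 192404 bp, and the nearest shared HOXD13 peak at 26212 bp. Of the 1476 windows of 1 Mb with at least 1 such site, 692 held a single site. The fullest window was chromosome 13 from 23 to 24 Mb, with 14 HOXD13-only sites beside 23 shared peaks, and 12 of the 14 overlapped wild-type H3K27ac. It was followed by chromosome 8 from 111 to 112 Mb, with 9 HOXD13-only sites (7 acetylated) beside 20 shared peaks. Next came chromosome 10 from 79 to 80 Mb, where 8 HOXD13-only sites (7 acetylated) outnumbered the 3 shared peaks. Windows on chromosome 13 from 21 to 22 Mb and on chromosome 18 from 69 to 70 Mb also held 8, of which 7 (chromosome 13) and 3 (chromosome 18) were acetylated. Gene models of the mm9 build were not used here, so no gene is assigned to a site.

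The first question is how often these sites lay in acetylated chromatin. H3K27ac overlapped 41.4% of HOXD13-only sites in the double mutant (1203 sites; 39.6 to 43.2%) and 42.0% in wild type (1220 sites; 40.2 to 43.8%). Over all autosomal HOXD13 peaks the corresponding shares were 38.2% and 43.5%. Because HOXD13 scores differed so much between the classes, shared peaks were weighted so that their scores were spread like those of HOXD13-only sites, over 10 score bins. With these weights H3K27ac overlapped 32.5% of shared peaks in the double mutant (31.5 to 33.5%) and 35.0% in wild type (33.9 to 36.1%). HOXD13-only sites were thus acetylated more often than shared peaks of like score, by 8.92 percentage points in the double mutant (6.86 to 11.0) and by 7.00 points in wild type (4.92 to 9.09). Both intervals exclude 0, although such intervals leave out the spread between embryos and are too narrow. Without the weighting the wild-type difference had the opposite sign, -1.78 points (-3.69 to 0.154).

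The acetylated share was larger at the highest HOXD13 scores than at the lowest in both classes. In wild type it was 29.9% of HOXD13-only sites in the lowest bin (scores 50.0 to 52.9) and 52.6% in the highest (scores 124 to 1523), and 30.4% of shared peaks in the lowest bin and 50.1% in the highest. HOXD13-only sites had the larger share in 10 of 10 bins in the double mutant and in 9 of 10 bins in wild type, the exception being the lowest bin. The highest bin has no upper bound, and the median score in it was 154 for HOXD13-only sites and 283 for shared peaks. With that range left out of both classes the differences were 8.96 points in the double mutant and 7.58 points in wild type.

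**Figure D2:**
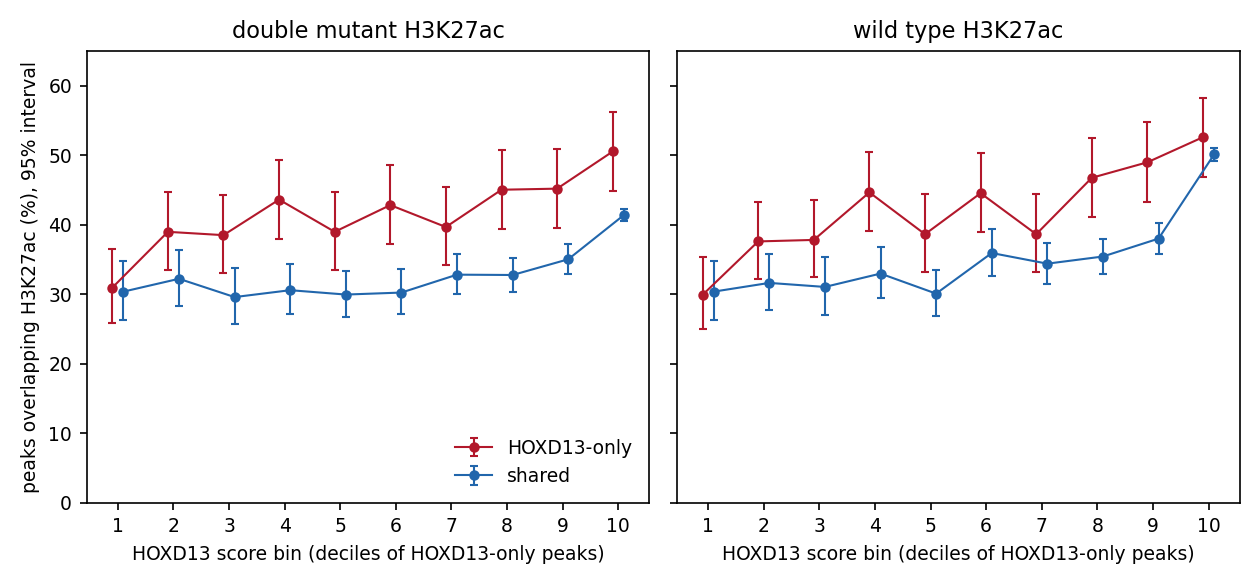
Share of HOXD13 peaks overlapping H3K27ac (vertical axis, %) in 10 bins of HOXD13 score that are the deciles of the HOXD13-only scores, from low to high, in the double mutant (left panel) and in wild type (right panel). Points are shares and vertical lines 95% intervals; HOXD13-only sites lie above shared peaks in 10 of 10 bins in the double mutant and in 9 of 10 in wild type.

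Polycomb chromatin held few of the sites. H3K27me3 overlapped 9.23% of HOXD13-only sites in the double mutant (268 sites; 8.23 to 10.3%) and 10.6% in wild type (309 sites; 9.57 to 11.8%), while over all autosomal HOXD13 peaks the shares were 8.90% and 11.2%. Shared peaks weighted to the same scores gave 7.62% in the double mutant and 9.26% in wild type. The differences, 1.61 points in the double mutant (0.436 to 2.85) and 1.38 points in wild type (0.116 to 2.71), were close to the counting error. When a HOXA13 peak within 1000 bp counted as shared, they were 0.758 points in the double mutant (-0.417 to 2.02) and 0.301 points in wild type (-0.962 to 1.64), and both intervals included 0. Of 4 classes of gap, both marks were most frequent at the HOXD13-only sites nearest to HOXA13, although intervals of some classes overlapped. H3K27ac overlapped 53.4% of the 219 sites with a HOXA13 peak within 1000 bp in the double mutant (46.8 to 59.9%) and 49.8% in wild type (43.2 to 56.3%), against 38.8 to 41.7% in the double mutant and 39.9 to 43.1% in wild type in the other classes. For H3K27me3, among the 219 with a HOXA13 peak within 1000 bp, 16.4% overlapped it in the double mutant (12.1 to 21.9%) and 19.6% in wild type (14.9 to 25.4%). At the 925 sites with a gap over 1000 and up to 10000 bp these shares were 11.6% (9.66 to 13.8%) in the double mutant and 12.9% (10.9 to 15.2%) in wild type. At the 1485 sites with a gap over 10000 and up to 100000 bp they were 7.07% (5.87 to 8.49%) in the double mutant and 8.15% (6.86 to 9.65%) in wild type. At the 276 sites farther away they were 7.25% (4.74 to 10.9%) in the double mutant and 9.42% (6.51 to 13.4%) in wild type.

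**Figure D3:**
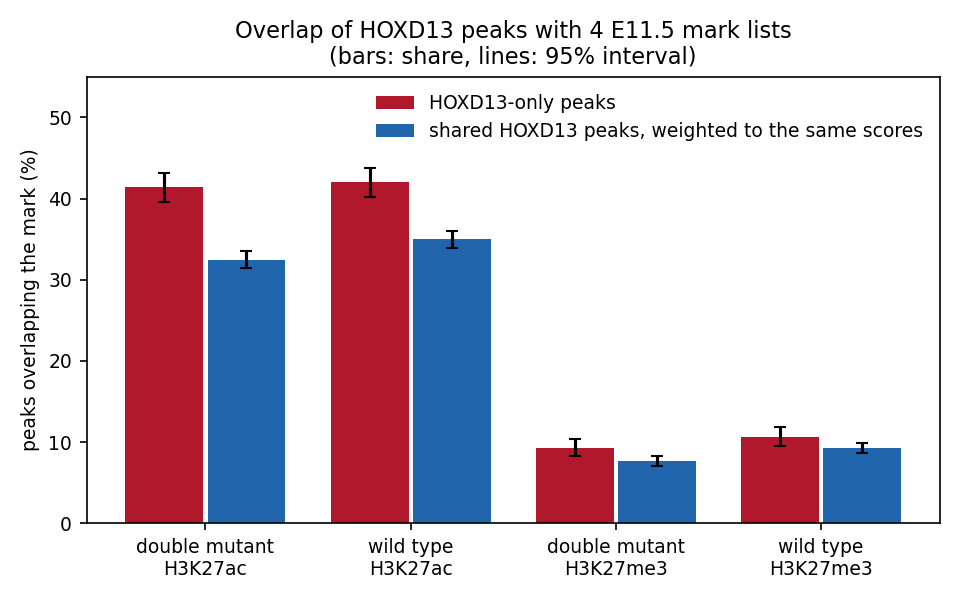
Share of HOXD13 peaks (vertical axis, %) overlapping each of 4 E11.5 mark lists, for HOXD13-only sites and for shared HOXD13 peaks weighted to the same HOXD13 scores. Bars are shares and lines 95% intervals; the H3K27ac bars of HOXD13-only sites (41.4% in the double mutant, 42.0% in wild type) stand above those of shared peaks (32.5% and 35.0%), and the H3K27me3 bars differ by under 2 points.

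Both marks together describe how the sites were distributed. In the double mutant 1071 HOXD13-only sites (36.9%) had H3K27ac only, 136 (4.68%) H3K27me3 only, 132 (4.54%) both marks and 1566 (53.9%) neither. In wild type the counts were 1074 (37.0%), 163 (5.61%), 146 (5.03%) and 1522 (52.4%), in the same order. Shared peaks, without weighting, had shares of 34.1, 5.27, 3.58 and 57.1% in the double mutant, in that order. In wild type they had 39.2, 6.70, 4.60 and 49.5%. The totals of HOXD13-only sites were close in both genotypes, and so were the states of single sites. Of sites with H3K27ac only in wild type, 968 (90.1%) had it only in the double mutant as well, and 98 (9.12%) had neither mark there, while for shared peaks, without weighting, the shares were 75.6% and 23.3%. Of the unmarked wild-type sites, 1445 (94.9%) had neither mark in the double mutant and 68 (4.47%) had H3K27ac only, against 92.7% and 6.39% of shared peaks. An exchange of one mark for the other was rare in both classes. Of sites with H3K27ac only in wild type, 3 (0.279%) had H3K27me3 only in the double mutant, beside 0.472% of such shared peaks. Of sites with H3K27me3 only in wild type, 5 (3.07%) had H3K27ac only in the double mutant, beside 3.91% of such shared peaks. Of the 146 sites with both marks in wild type, 108 (74.0%) kept both, 30 (20.5%) had H3K27ac only and 7 (4.79%) H3K27me3 only. Of shared peaks with both marks in wild type, 62.0% kept both, 22.9% had H3K27ac only and 12.4% H3K27me3 only.

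The H3K27ac peak in which an acetylated HOXD13-only site lay, called the host, often had a high score. The high scores of these hosts were already known when the sites were singled out, so the host values below describe them and are no independent evidence. The host of a HOXD13-only site had a median score of 1882 (lowest 50.2, highest 3233; 1220 sites), and the host of a shared peak one of 476 (lowest 50.0, highest 3233; 8522 peaks). The median over the whole autosomal list was 337. A host among the highest-scoring 25% of that list, at a score of 1566 or more, was found for 53.7% of acetylated HOXD13-only sites (655 sites; 50.9 to 56.5%), for 28.4% of acetylated shared peaks weighted to the same HOXD13 scores (26.8 to 30.1%) and for 31.6% of all acetylated HOXD13 peaks. The difference between the classes was 25.3 points (22.0 to 28.5). It had the same sign in 10 of 10 score bins, in which the share ran from 48.1% to 63.4% for HOXD13-only sites and from 26.3% to 30.6% for shared peaks. Among peaks of HOXA13 without HOXD13, 26.4% of the 2857 acetylated ones had such a host (24.8 to 28.1%), and the HOXD13-only share was 27.3 points higher (24.0 to 30.5), without matching, since scores of different factors are not comparable.

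The scores pile up at 3100, a value that 4358 autosomal wild-type H3K27ac peaks share, so the order above it is not read. Hosts at 3100 or more held 39.4% of acetylated HOXD13-only sites (36.7 to 42.2%) and 19.2% of acetylated shared peaks (18.4 to 20.04%). Hosts with scores from 50.0 to 115, the lowest 25% of the list, held 11.6% of the HOXD13-only sites (9.96 to 13.6%) and 18.2% of the shared peaks (17.3 to 18.99%).

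Hosts with high scores are also wide, with a median width of 946 bp in the lowest 25% of the list and of 2879 bp at 3100 or more, and width moved with the host pattern. The median host width was 2272 bp for HOXD13-only sites and 2014 bp for shared peaks, against 1627 bp over the whole list. In an alternative, shared peaks were weighted to the host widths of HOXD13-only sites as well as to their HOXD13 scores. Hosts at 1566 or more held 53.7% of HOXD13-only sites and 38.6% of these weighted shared peaks, a difference of 15.1 points (11.7 to 18.4). The sign stayed and the margin was smaller. This weighting was chosen after seeing the data.

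Seen from the H3K27ac peaks, the density per bp of HOXD13-only sites was highest in the strongest hosts and that of shared peaks in the weakest. A site counted from 1 bp of overlap, which raises the density in narrow hosts. The share of H3K27ac peaks with at least 1 shared peak was instead lowest in hosts under 115, at 21.5%, against 22.6 to 30.5% in the other classes. With at least 1 HOXD13-only site it rose from 1.97% under 115 to 10.0% at 3100 or more. These shares are not adjusted for host width. Per 100 kb of wild-type H3K27ac, HOXD13-only sites numbered 1.88, 1.55, 1.54, 2.16 and 3.08 in hosts with scores of 50.0 to 115, 115 to 337, 337 to 1566, 1566 to 3099 and 3100 or more, in that order. Shared peaks numbered 20.5, 18.5, 15.4, 9.76 and 10.48 over the same classes. HOXD13-only sites accordingly made up 8.41% of the acetylated HOXD13 peaks in hosts under 115 (7.18 to 9.83%) and 22.7% in hosts at 3100 or more (21.0 to 24.6%). The gradient was also present among low-scoring HOXD13 peaks. Among those with a HOXD13 score under 100, the HOXD13-only share was 21.2% in hosts under 115 (17.9 to 24.9%) and 46.4% at 3100 or more (42.8 to 50.0%), and 25.9% outside wild-type H3K27ac (24.8 to 27.1%). The share in the strongest hosts was thus above both the share in the weakest hosts and the share outside H3K27ac, while the intervals of those 2 overlapped slightly.

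**Figure D4:**
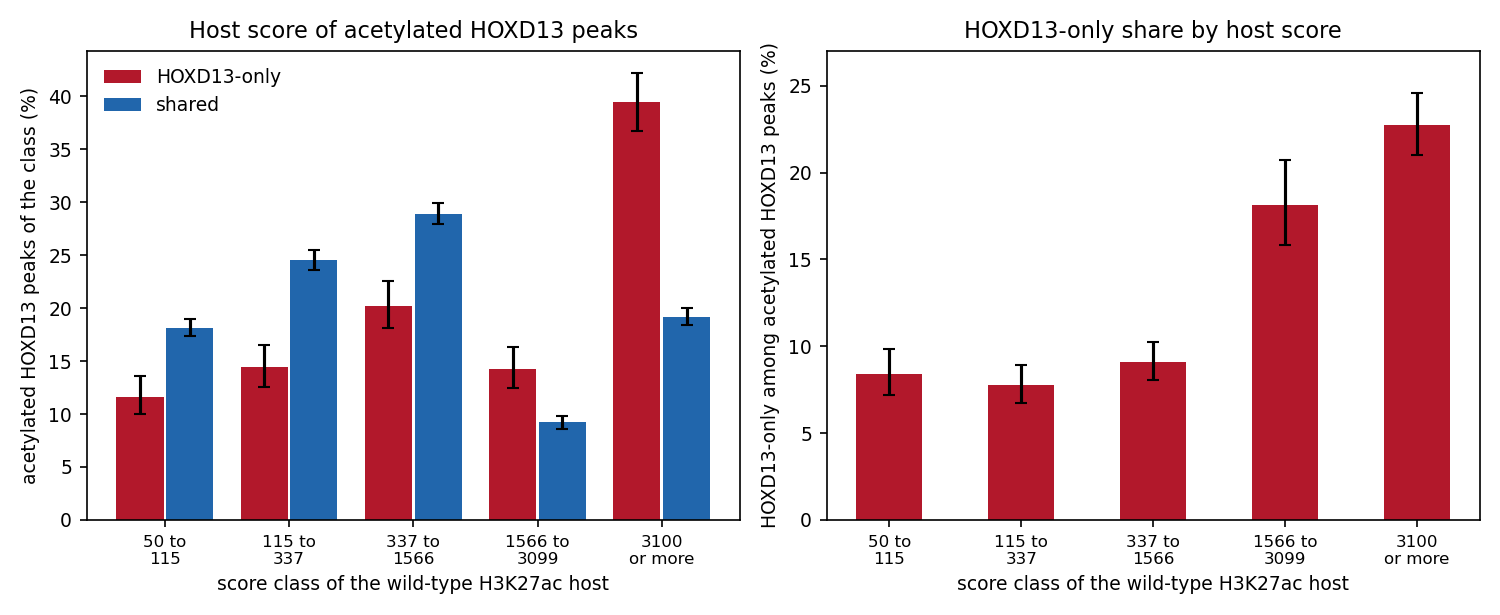
Left panel, share of acetylated HOXD13 peaks (vertical axis, %) in 5 classes of wild-type H3K27ac host score, for HOXD13-only sites and shared peaks; right panel, HOXD13-only sites as a share of all acetylated HOXD13 peaks (vertical axis, %) in the same classes. Lines are 95% intervals; hosts at 3100 or more held 39.4% of HOXD13-only sites and 19.2% of shared peaks, and HOXD13-only sites made up 22.7% of acetylated HOXD13 peaks there, against 8.41% in hosts under 115.

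The 1213 wild-type H3K27ac peaks that overlapped a HOXD13-only site were 3.89% of the autosomal list. Of these, 147 (12.1%; 10.4 to 14.1%) also overlapped a HOXA13 peak, 106 (8.74%) also a shared HOXD13 peak, and 22 held more than 1 HOXD13-only site. Over the whole autosomal list 26.4% of H3K27ac peaks overlapped a shared HOXD13 peak, and 29.7% of those at 3100 or more did. The rule keeps HOXA13 peaks off the part of a host under its HOXD13-only site. The lower shares in these hosts are therefore partly set by the rule and are not a result. Within the host, the centre of a HOXD13-only peak lay a median of 339 bp from the host's centre and that of a shared peak 297 bp. Scaled to host width, the median offsets were 0.308 of the distance from centre to edge for HOXD13-only sites and 0.297 for shared peaks. HOXD13-only peaks lay wholly inside the host in 69.5% of cases (66.9 to 72.0%) and shared peaks in 54.2% (53.1 to 55.2%). That contrast is not weighted, and HOXD13-only peaks were narrower and their hosts wider than those of shared peaks.

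The next comparison asked how often acetylation was no longer called once both factors were missing. Of the 1220 HOXD13-only sites with wild-type H3K27ac, 109 overlapped no double-mutant H3K27ac peak, which is 8.93% (7.46 to 10.7%). The background over all acetylated HOXD13 peaks was 21.1%, and over all autosomal wild-type H3K27ac peaks, counted as peaks, 15.1%. Shared peaks weighted to the same HOXD13 scores gave 20.3% (18.9 to 21.8%), so the share at HOXD13-only sites was lower by 11.4 points (difference -11.4, -13.5 to -9.12). It was lower in 10 of 10 score bins. Peaks of HOXA13 without HOXD13 lost the mark in 17.4% of cases (16.1 to 18.9%), without matching.

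Host score moved with this result. Weighting shared peaks to the same host scores as well as HOXD13 scores left 12.6% of shared peaks without double-mutant H3K27ac and a difference of -3.67 points (-5.71 to -1.51). In hosts under 115, 47.9% of HOXD13-only sites had no double-mutant peak (68 of 142; 39.8 to 56.1%), against 62.5% of shared peaks (60.1 to 64.9%). In hosts of 115 to 337 the shares were 18.2% (32 of 176; 13.2 to 24.5%) at HOXD13-only sites and 35.5% (33.5 to 37.6%) at shared peaks. In hosts of 337 to 1566 they were 3.64% (9 of 247; 1.93 to 6.78%) at HOXD13-only sites and 8.97% (7.90 to 10.2%) at shared peaks. In hosts at 1566 or more no HOXD13-only site was without double-mutant H3K27ac, 0 of 655, while 18 of 2420 shared peaks were (0.744%; 0.471 to 1.17%). A count of 0 of 655 allows a share of up to 0.458% by the limit of 3 counts. The Wilson interval allows up to 0.583% and overlaps that of shared peaks. Such an overlap does not decide whether the shares differ, and no interval for the difference was computed in this class. In each of the 3 classes under 1566 HOXD13-only sites thus lost the mark less often than shared peaks in hosts of like score. The shares by host class are not weighted to HOXD13 score, which was higher at shared peaks. Only the difference of -3.67 points above is weighted to both scores.

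H3K27ac peaks that overlap neither factor gave a lower baseline. They had no double-mutant peak in 31.3% of cases under 115 (30.04 to 32.5%), in 9.93% from 115 to 337 (9.11 to 10.8%) and in 0.636% from 337 to 1566 (0.443 to 0.912%). Without weighting to HOXD13 score, HOXD13-only sites lay between these unbound peaks and the shared peaks in each of these 3 classes. The intervals of HOXD13-only sites were apart from those of both. For unbound peaks the whole H3K27ac peak was tested for overlap and for HOXD13 sites the part under the factor peak, which differ where a host is partly covered: at 3 of the 109 HOXD13-only sites without double-mutant H3K27ac the host overlapped a double-mutant peak elsewhere.

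**Figure D5:**
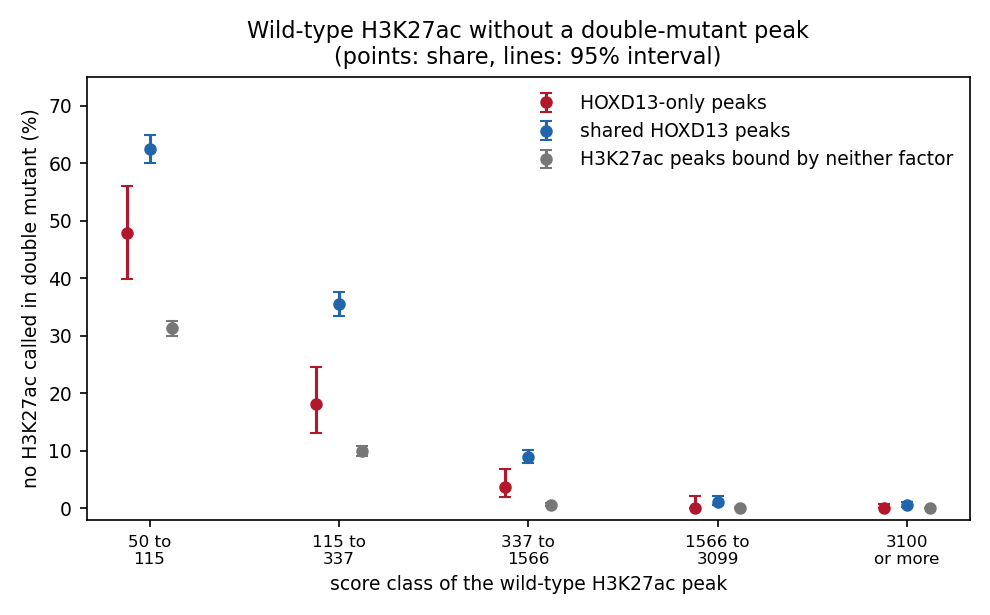
Share of wild-type H3K27ac without a double-mutant H3K27ac peak (vertical axis, %) in 5 classes of wild-type H3K27ac score, for HOXD13-only sites, shared HOXD13 peaks and H3K27ac peaks bound by neither factor. Points are shares, not weighted to HOXD13 score, and lines 95% intervals. Under 115 the values were 47.9%, 62.5% and 31.3%, in that order, and in both classes from 1566 HOXD13-only sites were at 0.

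Of the 109 sites without double-mutant H3K27ac, 64 had a host score under 100 (58.7%; 49.3 to 67.5%), as did 828 of 1948 such shared peaks (42.5%; 40.3 to 44.7%), without weighting. H3K27me3 was called in the double mutant at 10 of the 109 (9.17%; 5.06 to 16.1%), beside 7.55% of the shared peaks (6.45 to 8.80%), and at 3 of these it was not called in wild type. The 3 with the highest HOXD13 scores were chr11:115879318-115884483 (HOXD13 score 1523, host score 80.8), chr14:28127394-28128933 (HOXD13 score 214, host score 85.6) and chr1:12509076-12510491 (HOXD13 score 199, host score 599). The last of these lay 145 bp from a HOXA13 peak.

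In the opposite direction, 92 of the 1685 HOXD13-only sites outside wild-type H3K27ac overlapped it in the double mutant, 5.46% (4.47 to 6.65%), where the background over all such HOXD13 peaks was 6.76%. Score-weighted shared peaks gave 7.16% (6.46 to 7.93%), a difference of -1.70 points (-2.95 to -0.317) whose interval came close to 0. Wild-type H3K27me3 overlapped 23 of the 92 sites (interval 17.3 to 34.7%), and it was no longer called in the double mutant at 5 of them. Among the 762 shared peaks that gained H3K27ac in this way, 143 had wild-type H3K27me3 (18.8%; 16.2 to 21.7%), an interval that overlaps that of HOXD13-only sites. Wild-type H3K27me3 no longer called in the double mutant was found at 6.69% of these shared peaks (5.13 to 8.69%). For the 92 HOXD13-only sites that share was 5.43% (2.34 to 12.1%). The sites with the highest HOXD13 scores were chr17:71183583-71184908 (HOXD13 score 190, double-mutant H3K27ac score 71.0), chr18:54278324-54279392 (HOXD13 score 171, H3K27ac score 66.9) and chr3:84549171-84550310 (HOXD13 score 145, H3K27ac score 78.4). The first and the second overlapped H3K27me3 in both genotypes. All 3 H3K27ac scores were under 100, in a list with a median of 243.

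H3K27me3 was kept at most of the HOXD13-only sites that had it. Of the 309 in wild-type H3K27me3, 58 overlapped no double-mutant H3K27me3 peak, or 18.8% (14.8 to 23.5%), beside a background of 28.0% over all HOXD13 peaks with the mark. Shared peaks weighted to the same scores gave 23.7% (20.7 to 27.03%), and the difference of -4.94 points had an interval, -10.1 to 0.671, that included 0. Only 17 of 2596 HOXD13-only sites without the mark in wild type overlapped it in the double mutant (0.655%; 0.409 to 1.05%), against a background of 0.921%. H3K27me3 hosts were broad, with a median width of 5886 bp in the double mutant and of 5543 bp in wild type. Their wild-type scores lay among the highest 25% of that list for 53.4% of HOXD13-only sites (47.8 to 58.9%) and for 47.1% of shared peaks (45.0 to 49.2%), without weighting.

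The HOXD13-only sites with the highest HOXD13 scores were of different kinds. The site on chromosome 2 at 72313480 to 72314702 (HOXD13 score 826) lay in H3K27ac peaks of both genotypes, from 72312399 to 72316695 in the double mutant (score 3100) and from 72312992 to 72316540 in wild type (score 3100). The site on chromosome 5 at 138628000 to 138629188 (HOXD13 score 684) likewise lay in H3K27ac from 138627385 to 138630184 in the double mutant (score 3204) and from 138627482 to 138629846 in wild type (score 3100). Neither overlapped H3K27me3, and HOXA13 was called no nearer than 5400 bp from the first and 100681 bp from the second. The other 3 of the 5 highest were the chromosome 11 site above and 2 without any mark in the 4 lists, chr6:51406435-51412651 (score 816) and chr1:7380018-7384686 (score 746). They were wide, at 5166 bp (chromosome 11), 6217 bp (chromosome 6) and 4669 bp (chromosome 1), against the median of 1015 bp. A further unmarked site, on chromosome 8 at 59993433 to 59999132 (score 604), was 5700 bp wide.

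The highest-scoring sites in H3K27me3 had lower HOXD13 scores than the 5 above. The highest with H3K27me3 only in wild type was on chromosome 17 at 39979602 to 39986173 (HOXD13 score 461, width 6572 bp), in H3K27me3 peaks from 39977919 to 39988005 in the double mutant (score 3100) and from 39975700 to 39990561 in wild type (score 108). This was the widest of all HOXD13-only sites. Whether the input libraries also have signal there was not tested, and no list of regions with excess signal was used to remove peaks. Next by HOXD13 score were the chromosome 17 site at 71183583 and 1 on chromosome 11 at 33103150 to 33104329 (HOXD13 score 189). The H3K27me3 hosts of this chromosome 11 site were 19673 bp wide in the double mutant and 21073 bp wide in wild type. With both marks in wild type, the highest was on chromosome 5 at 111844355 to 111846363 (HOXD13 score 333), which overlapped both marks in both genotypes. Its H3K27me3 hosts did not overlap each other, running from 111846204 to 111854712 in the double mutant and from 111837985 to 111845976 in wild type. Next was chromosome 4 at 135701852 to 135704342 (score 267), where H3K27ac was called in both genotypes and H3K27me3 in wild type but not in the double mutant. The third was chromosome 8 at 92094167 to 92096137 (score 231), with H3K27me3 called in wild type only. Its H3K27ac host ran from 92092985 to 92095757 in the double mutant (score 745) and from 92095881 to 92096558 in wild type (score 55.8). These hosts do not overlap each other, and scores of different lists are not comparable as amounts.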

How the data were processed

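The deposited values are peak lists with a score per peak; per the submitters' processing notes, the authors used Bowtie 0.12.7 and MACS 1.4 on mm9. Per the file names, each list was called against an input. The series holds 5 input libraries, and none is labelled for either E11.5 H3K27me3 library. Which input served those lists, and the options used, are not given in the sources used here. The lowest deposited score is 50, a p-value of 1e-05 on the scale of MACS. The reference at hand is GRCm38, whose chromosome 1 has 195471971 bp, and each list had 6 to 16 peaks beyond that, so no sequence or gene was taken from it. Overlap meant 1 bp or more. The host is the overlapping peak with the highest score. Shares of shared peaks were averaged over 10 score bins with the weights of HOXD13-only sites; intervals are Wilson intervals, and for differences a hybrid of both Wilson intervals. The calculation was tested on simulated data. The sites and comparisons were chosen with earlier results of these data known. Named sites are the 5 with the highest HOXD13 score, the 3 highest in each class of marks or change, the 3 nearest each side of the rule and the 3 fullest windows. The alternatives numbered 12 as planned and 2 added after seeing the data. Python 3.11.15, numpy 2.4.6 and pandas 2.3.3 were used. No read depth, input signal or replicate is in the lists analysed here.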

Additional observations from a re-analysis of the deposited data

Results flagged for a closer look

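Data outside the comparisons also held signal at these sites. In the E10.5 forelimb H3K27me3 list (CD1 mice, another antibody), 194 HOXD13-only sites overlapped a peak, 6.68% (5.83 to 7.64%), against 5.89% of score-weighted shared peaks, a difference of 0.787 points (-0.225 to 1.88). Of the 194, 165 (85.1%) overlapped E11.5 H3K27me3 in the double mutant and 175 (90.2%) in wild type. The same was not counted for shared peaks, so these shares have no comparison. The X chromosome, left out by the rule, held 63 HOXD13 peaks without a HOXA13 peak, 22.3% of its 283 HOXD13 peaks (17.8 to 27.5%). H3K27me3 overlapped 1 of these 63 in the double mutant and 25 in wild type, and H3K27ac 16 in the double mutant and 19 in wild type. These marks were not counted at the other HOXD13 peaks of the X chromosome. The H3K27me3 lists themselves differed there, with 385 peaks on the X chromosome in the double mutant and 9251 in wild type. The cause was not tested, and the autosomal comparisons leave these peaks out.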

How the results depend on the processing

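All differences here are HOXD13-only minus shared, in percentage points. Without matching, the difference was 3.73 for double-mutant H3K27ac and turned to -1.78 for wild-type H3K27ac, was 0.380 for double-mutant H3K27me3 and turned to -0.659 for wild-type H3K27me3, and that of lost H3K27ac was -13.9. The lost-H3K27ac difference was -14.0 with lists of equal length, -14.3 with each host counted once, -3.67 with matching on host score and -6.17 with matching on host width, which also gave 15.1 for hosts at 1566 or more. Keeping only peaks that score at least 100, whichever the list, left 1776 HOXD13-only sites, since HOXA13 peaks were dropped too. All other alternatives stayed within the main intervals. The interval excluded 0 in 11 of 11 alternatives for double-mutant H3K27ac and 10 of 11 for wild-type H3K27ac. For lost H3K27ac it did so in 14 of 14. By contrast, it excluded 0 in 8 of 11 for double-mutant H3K27me3, 5 of 11 for wild-type H3K27me3 and 9 of 11 for gained H3K27ac. For host score it did so in 12 of 12, but high host scores were known when the sites were singled out. That count describes the sites and is no independent evidence. The causes were not tested. No paired analysis was possible because each group holds 1 library. Unknown depth limits every absent call.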

Other observations

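Wide peaks formed a small group of their own, chosen after their values were seen. Of the 2905 HOXD13-only sites, 9 were 3000 bp wide or wider, and 6 of these 9 overlapped no mark in any of the 4 E11.5 lists. Among shared HOXD13 peaks, 196 were that wide and 12 of them (6.12%) overlapped no mark. The unmarked wide sites were those on chromosomes 6, 1 and 8 described above, chr6:30698001-30702266 (HOXD13 score 383), chr10:23500764-23504477 (HOXD13 score 174) and chr12:8623230-8626829 (HOXD13 score 518). Whether the input libraries also have signal at any of the 9 wide HOXD13-only sites was not tested.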
